A study of Mus musculus with 12 samples.

Results

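The mitochondrial genome of the mouse encodes 13 mRNAs. Of these, 10 were followed here in polysome gradient fractions of mouse liver: ND1, ND2, ND3, ND4, ND4L, ND5, ND6, CYTB, COX1 and COX3. They were taken by name from count tables of 27179 gene IDs. All 10 were present, and all 10 passed the filter on low counts that left 10555 genes for testing. The other 3 mRNAs, COX2, ATP6 and ATP8, are given where the results turn on them.

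Mitochondrial DNA is transcribed from both strands into long RNAs that are cut into rRNAs, tRNAs and mRNAs, so most of these mRNAs start out in the same molecule. They encode membrane subunits of the respiratory chain, which moves electrons from NADH to oxygen and pumps protons. They are translated inside the organelle by mitochondrial ribosomes, and not by the cytosolic ribosomes that form polysomes. Liver is rich in mitochondria, which carry out β-oxidation and ketone body synthesis.

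The livers came from male C57BL/6 mice. Wild-type animals ate chow (3 animals) or a ketogenic diet (2 animals), which is rich in fat and poor in carbohydrate. The diets were given for 24 h per the protocol, while the time label reads 0 h for every library. A single chow-fed animal was eIF4E S209A/S209A: eIF4E binds the mRNA cap, and S209A replaces the serine that MNK kinases phosphorylate. From each liver a heavy and a light polysome library were made from pooled sucrose gradient fractions, 12 libraries in all, and ages are not given. The labels do not say which fractions, 2 to 7 or 8 to 13, were called heavy. The chow animals are called chow 1, 2 and 3 and the ketogenic animals keto 1 and 2. The sample titles say chow for chow 1 and 2, and fed for chow 3 and the S209A animal.

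Library totals ran from 3341046 to 13263355 counts, and the 10 mRNAs held 2741 to 15989 of them. The mitochondrial rRNAs held 12.1% to 74.2% of a library. The file headers name Bowtie2 for chow 1 and chow 2, HISAT2 for chow 3 and S209A, and no aligner for keto 1 and keto 2. Between keto and chow animals the diet and the processing cannot be told apart, and the chow group itself spans 2 kinds of header. Of 8 hepatocyte markers all 8 had counts, with a summed level of at least 4069.7 CPM (counts per 1000000 of the TMM-scaled library size) in every library. Of 5 markers of brown fat or muscle, Ucp1, Cidea, Myh6 and Ckm were at 0 in every library. The other, Acta1, had counts, and the list summed to 0 CPM in every library but 1 keto light library, where it was at 1.14 CPM. In whole liver, fewer cells of a type and less RNA per cell cannot be told apart.

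The HISAT2 header went with a gap in the counts along the mitochondrial genome. The 6 neighbouring genes COX2, ATP8, ATP6, COX3, ND3 and ND4L (MT, 7013 to 10173 in GRCm38.p6) held 10.4% to 13.2% of the counts of all 13 mRNAs in chow 1, chow 2 and both keto animals. In chow 3 and S209A they held 0.109% to 0.287%. COX3, a core subunit of complex IV, had 89 to 269 counts in heavy in chow 1, chow 2 and the keto animals. It had 1 in heavy in chow 3 and 2 in S209A. ND4L, a small membrane subunit of complex I, had 35 to 152 counts in the heavy and light libraries of chow 1, chow 2 and keto, and 0 in both libraries of chow 3. In the heavy library of chow 3 the limit that a count of 0 allows, taken as 3 counts, is a share of 0.0602% of the 10 mRNAs. The genes on either side, COX1 and ND4, had counts of 1185 to 2347 and 73 to 212 in the same 4 libraries, so the low counts ended at the borders of the block.

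RefSeq lists pseudogenes of the same length as parts of this block on chromosome 1. Gm10925 (1, 24613971 to 24614651) has the 681 bases of ATP6 and Gm10222 (1, 24612404 to 24612700) the 297 bases of ND4L. From end to end the pair spans 2248 bases, against 2247 from the start of ATP6 to the end of ND4L on the mitochondrial genome. Their counts were not analysed here, and their part in the gap was not tested. Levels of COX3, ND3 and ND4L in chow 3 and S209A are therefore not read as levels of RNA below, and their fitted chow values are also given without the HISAT2 libraries.

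**Figure D1:**
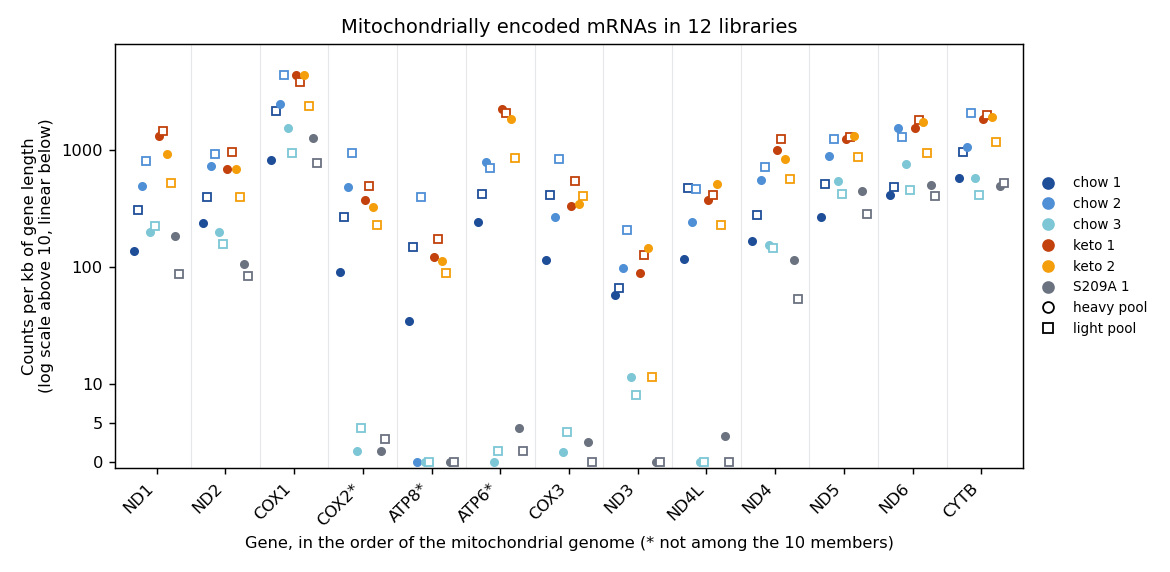
Counts per kb of gene length (log axis above 10, linear below) for the 13 mitochondrial mRNAs in the order of the genome; each point is 1 library, filled circles are heavy pools, open squares are light pools, and an asterisk marks genes outside the 10. COX1 is the highest of the 10 in all 12 libraries, and from COX2 to ND4L the chow 3 and S209A points lie near 0.

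COX1 was the most counted mRNA per kb of gene length in 12 of 12 libraries. It encodes the catalytic subunit of complex IV, cytochrome c oxidase (Entrez 17708; MT, 5328 to 6872), and it had 767 to 4367 counts per kb, with a median of 2257. Its level was 1.42 to 2.54 times that of the next gene, CYTB or ND6. COX1 held 36.3% to 48.3% of the counts of the 10 mRNAs. Its partner COX3 (Entrez 17710; MT, 8607 to 9390) ranked between 6 and 9.

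CYTB, the only mitochondrially encoded subunit of complex III (MT, 14145 to 15288), ranked 2 to 4 among the 10, with 407 to 2068 counts per kb. ND6, the only mRNA transcribed from the other strand (MT, 13552 to 14070), also ranked 2 to 4, with 401 to 1780 counts per kb. The order of CYTB and ND6 changed from library to library, so they cannot be ranked against each other. ND6 overlaps ND5 by 14 bases on the opposite strand. Whether the counting used strand is not stated, so reads of ND6 and its antisense RNA cannot be told apart.

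The 7 complex I subunits together held 33.8% (chow 1 light) to 47.0% (keto 1 light) of the counts. ND5, a proton-pumping subunit and the longest of the 10 genes, ranked 3 to 5 per kb. Below it the ranks of ND1 (4 to 8), ND4 (5 to 9) and ND2 (5 to 8) overlapped across libraries. These encode membrane subunits of the proton channels and the ubiquinone site. ND3, a small subunit near that site, had 4 to 72 counts in chow 1, chow 2 and the keto animals and ranked 10 in each of these 8 libraries.

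The 7 mRNAs outside the gap varied together. Over 12 libraries the TMM-scaled log2 levels of ND1, ND2, COX1, ND4, ND5, ND6 and CYTB correlated at r = 0.942 to 0.988 in 21 pairs, with scaling and mitochondrial content shared by all pairs. The libraries also share the split by header, so r describes these libraries and carries no test. Among the chow animals each of the 7 was highest in chow 2 and lowest in chow 3, in heavy and in light. The highest chow level was 3.21 to 7.25 times the lowest in heavy and 5.26 to 10.7 times in light. In the keto pair the same ratio was 1.02 to 1.50.

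How much mitochondrial mRNA a library held depended on what it was measured against. Per 1000000 counts of the library, the 10 mRNAs had 859, 1874 and 832 counts in heavy for chow 1, 2 and 3. They had 1180 and 1687 for keto 1 and 2. The light libraries had 804, 1469 and 846 in chow, and 1665 and 1045 in keto. On this scale both keto animals lay inside the chow range in heavy, and in light keto 1 lay above it.

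Per 1000 counts of nuclear protein-coding genes, the 10 mRNAs had 5.39, 8.45 and 2.80 counts in chow heavy and 21.1 and 28.0 in keto heavy. In light they had 12.3, 18.0 and 2.16 counts in chow, and 25.2 and 25.6 in keto. On this scale every keto library lay above every chow library of its pool. Per 1000 mitochondrial rRNA counts the order turned in heavy, with 5.14, 14.5 and 6.05 counts in chow and 2.49 and 2.27 in keto. In light the rRNA scale gave 1.38, 2.80 and 6.28 in chow, and 4.43 and 2.02 in keto, which overlapped. The mitochondrial rRNAs held 12.9% to 16.7% of the chow heavy libraries and 47.3% and 74.2% of the keto ones.

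**Figure D2:**
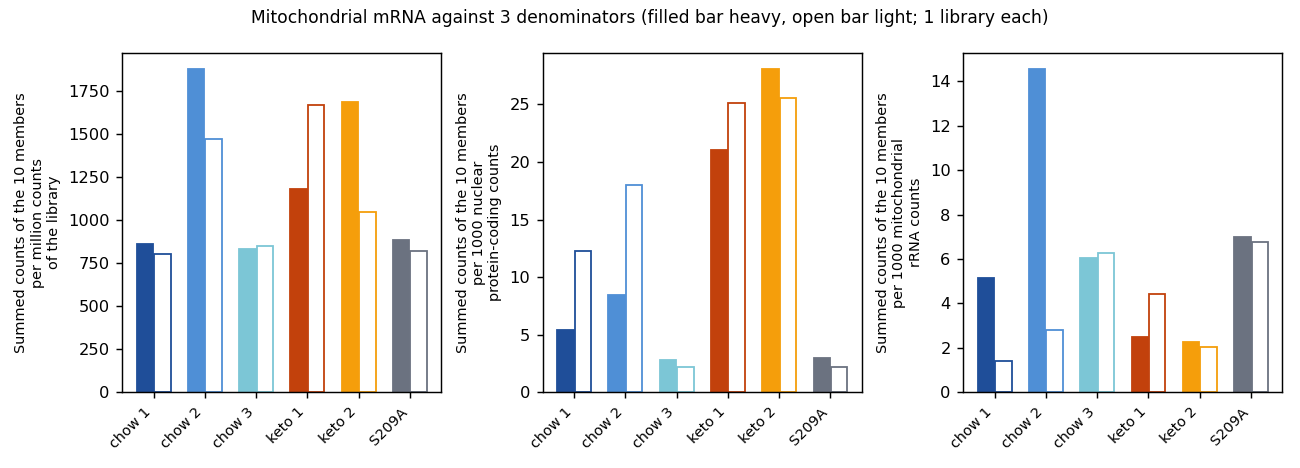
Summed counts of the 10 mRNAs per 1000000 library counts (left), per 1000 nuclear protein-coding counts (middle) and per 1000 mitochondrial rRNA counts (right), 1 bar per library, filled for heavy and open for light. The keto bars are the highest in the middle panel (21.1 to 28.0) and, in heavy, the lowest in the right panel (2.27 and 2.49).

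The first comparison set heavy against light within chow-fed livers. It compares the level of an RNA relative to its library between the pools, and does not give its amount along the gradient. After TMM scaling, 9 of the 10 mRNAs had a negative heavy-over-light value, and the median was -0.26 in log2, against -0.09 over all genes tested. edgeR's quasi-likelihood test called 0 of the 10 at an adjusted p under 0.05, where 0.227% of all genes were called. At an unadjusted p under 0.05 there were 2 of the 10, beside 6.96% of all genes. DESeq2 called 1 of the 10, beside 0.919% of all genes. With limma-voom 0 of the 10 were called, beside 24 upward and 8 downward of 10555 genes. The signs rest on the scaling: by library total 6 of the 10 turned positive, with a median of 0.19 beside 0.29 over all genes.

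COX3 had the most negative value. Chow 1 had 22.1 CPM of it in heavy and 56.0 in light, and chow 2 had 30.3 and 93.4. Both animals were lower in heavy, and chow 3 had 1 and 3 counts. The fitted value was log2 -1.48 ± 0.43 (SE, 3 chow animals, edgeR adjusted p = 0.106). DESeq2 called it, at -1.46 with an adjusted p of 0.00959, beside 0.919% of all genes. Without the HISAT2 libraries it was -1.50, with an edgeR adjusted p of 0.00134, beside 3.88% of all genes. Without chow 3 alone it was -1.52 (edgeR adjusted p = 0.00159), beside 3.81%. With nuclear protein-coding counts as library size it was -1.97 (edgeR adjusted p = 0.00344), beside 0.322%. By library total it was -0.83 ± 0.74 (edgeR adjusted p = 1).

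ND6 was the only one with a positive value, at 0.40 ± 0.36 (edgeR adjusted p = 0.951). Its heavy-over-light value was positive in each chow animal, at 0.29, 0.27 and 0.65. COX1, from the other strand, was at -0.89 and -0.81 in chow 1 and chow 2, and at 0.60 in chow 3. ND4L was at -1.16 ± 0.52 (edgeR adjusted p = 0.576), and without the HISAT2 libraries at -1.20 ± 0.42 (edgeR adjusted p = 0.0999). ND1 was at -0.54 ± 0.36 (edgeR adjusted p = 0.879). The other 6 lay between -0.38 (COX1) and -0.11 (ND2), all within 1 SE of 0. ND3 was among them, at -0.26, and at -0.44 ± 0.68 without the HISAT2 libraries.

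Chow animals did not run one way. For the summed 10 mRNAs the heavy-over-light value after TMM scaling was -0.58 in chow 1, -0.66 in chow 2 and 0.42 in chow 3. Chow 3 thus had the opposite sign to the others on this scale. By library total all 3 signs turned, to 0.095, 0.35 and -0.024. After TMM scaling the mitochondrial rRNAs were at -2.47, -3.04 and 0.47 in the same animals. Their part in the result was not tested.

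In keto livers the same comparison gave 9 negative values of 10 and a median of -0.26, against 0.03 over all genes. edgeR called 0 of the 10, where 0.18% of all genes were called. DESeq2 and limma-voom called 0 of the 10. Of 10555 genes, DESeq2 called 0 in either direction, and limma-voom called 0 upward and 7 downward. Beside 4.27% of all genes, there was 1 of the 10 at an unadjusted p under 0.05. That gene was again COX3, with 40.6 and 52.0 CPM in heavy against 80.1 and 112 in light. It was lower in heavy in both animals, by -1.04 ± 0.45 in log2 (n = 2 animals, edgeR adjusted p = 1). ND3 stood at 0.75 ± 0.89, with 31 and 50 counts in heavy against 44 and 4 in light. Its sign rests on the 4 counts in keto 2 light, and without keto 2 it was -0.78. The summed 10 mRNAs had -0.31 in keto 1 and -0.11 in keto 2, and by library total -0.50 and 0.69.

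The difference in heavy over light between keto and chow had a median of 0.15 over the 10, equal to the 0.15 over all genes. edgeR called 0 of the 10, where 0.189% of all genes were called. At an unadjusted p under 0.05 there were 0, beside 6.04% of all genes. DESeq2 and limma-voom also called 0 of the 10. Of 10555 genes, DESeq2 called 0 upward and 14 downward, and limma-voom called 3 upward and 16 downward. Values ran from -0.64 ± 0.57 for ND6 to 1.11 ± 0.73 for ND4L. COX3 differed by 0.44 ± 0.60 (edgeR adjusted p = 0.992). Without the HISAT2 libraries the difference was 0.48 ± 0.48 for COX3, 1.16 ± 0.59 for ND4L and 1.16 ± 1.02 for ND3. With these errors differences of that size were not detectable.

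**Figure D3:**
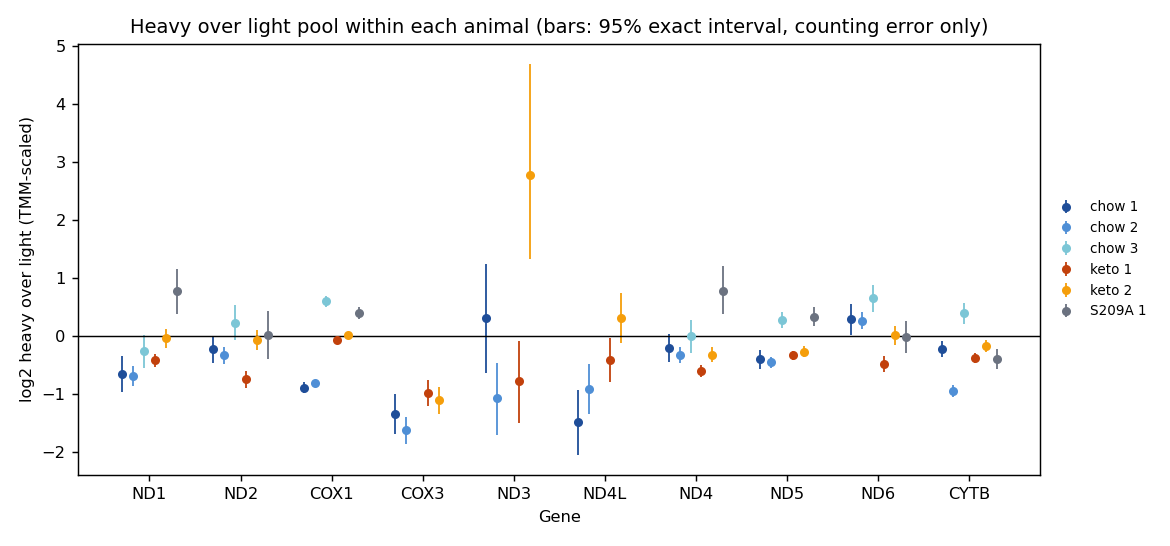
Heavy over light in log2 after TMM scaling for each of the 10 mRNAs and each of the 6 animals; bars are exact 95% intervals that cover counting error only, and COX3, ND3 and ND4L are not drawn for chow 3 and S209A. COX3 lies between -0.98 and -1.62 in the 4 animals drawn, and the long bar of ND3 in keto 2 comes from 4 counts in light.

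Setting each mRNA against the summed 10 removes the scaling of the library. In chow 1 and chow 2 COX3 held 2.64% and 2.15% of this sum in heavy, and 4.49% and 4.19% of it in light. In keto 1 and keto 2 it held 1.65% and 1.74% in heavy, against 2.63% and 3.48% in light. The share was lower in heavy in 4 of 4 animals, by -0.67 to -0.995 in log2. Its neighbours on the genome went different ways: COX2 was also lower in 4 of 4 animals (-0.23 to -0.46), while ATP6, which lies between them, was higher in 4 of 4 (0.17 to 0.82).

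ND6 held 6.38%, 8.23% and 7.91% of the sum in chow heavy, against 3.50%, 4.32% and 6.75% in light. It was higher in heavy in 3 of 3 chow animals. In keto it held 5.13% and 5.82% in heavy, against 5.78% and 5.34% in light, with mixed signs. In S209A it held 6.39% in heavy and 7.59% in light.

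COX1, the largest share, went both ways. It held 37.3% and 39.0% in heavy against 46.5% and 43.2% in light for chow 1 and chow 2. For chow 3 it held 47.1% in heavy and 41.5% in light. Both keto animals had the order of chow 3, with 43.1% and 43.7% in heavy against 36.3% and 39.9% in light. CYTB was lower in heavy in 5 of 6 animals, with chow 1 as the exception (19.5% in heavy, 15.2% in light).

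With the library size set to the summed 10, edgeR called 0 of the 10 in chow heavy against light, where 0.0379% of all genes were called. It also called 0 in keto, beside 0.0474%. For the difference between the diets it called 0 of the 10, beside 0% of all genes. None of the 10 reached an unadjusted p under 0.05 in these 3 fits, beside 4.94%, 3.75% and 3.51% of all genes. No other tool was run on shares. These fits took their spread from all genes, and the SE of a share was 0.53 to 1.01 in chow.

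**Figure D4:**
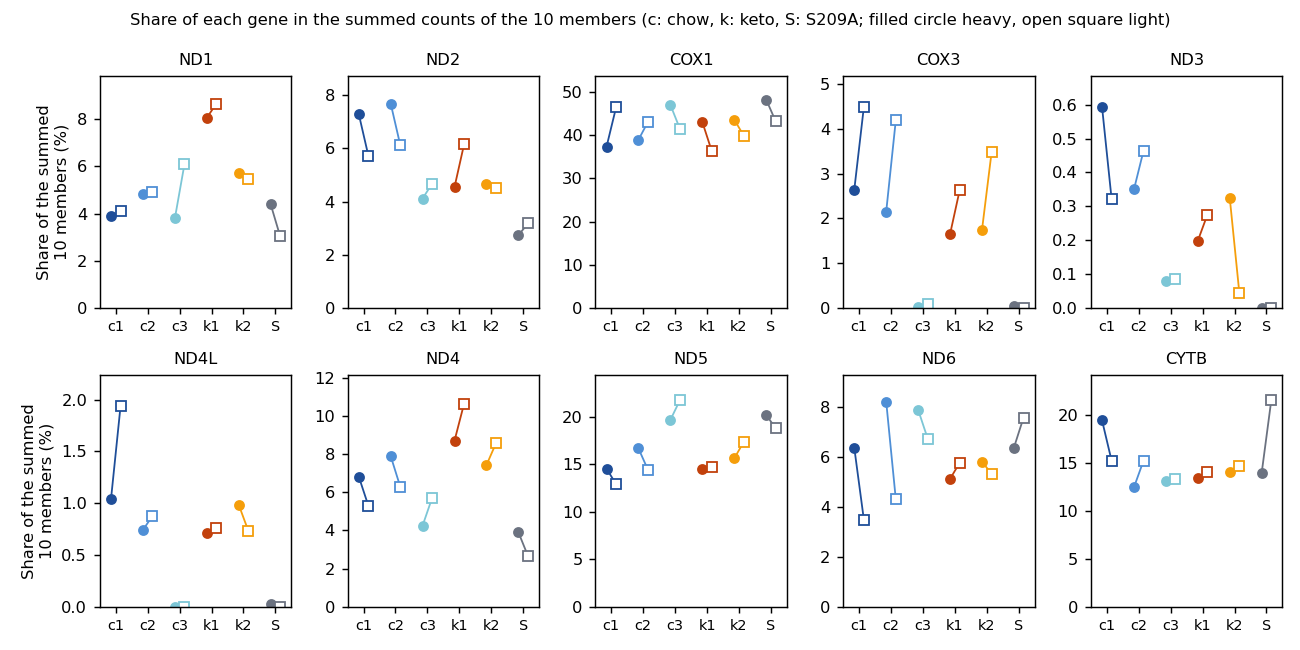
Share of each mRNA in the summed counts of the 10, in percent, with 1 panel per gene and a line joining the heavy (filled circle) and light (open square) pool of an animal; c is chow, k is keto, S is S209A, and the vertical scales differ. COX3 is lower in heavy in chow 1, chow 2, keto 1 and keto 2, and ND6 is higher in heavy in the 3 chow animals.

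The diet comparison set keto against chow within each pool. After TMM scaling, all 10 mRNAs had a higher mean level in keto, in heavy and in light. The median log2 value was 1.53 in heavy and 1.22 in light, against -0.04 and -0.13 over all genes. edgeR called 0 of the 10 in either pool, where 0% of all genes were called. At an unadjusted p under 0.05 there were 5 of the 10 in heavy and 3 in light, beside 8.17% and 6.07% of all genes (862 and 640). DESeq2 called 2 of the 10 in heavy, beside 1.05% of all genes, and 0 in light, where it called 0 of all genes. With limma-voom 0 of the 10 were called in both pools. Of all genes it called 4 upward and 0 downward in heavy, and 0 in light.

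In heavy the keto levels lay above every chow level for 9 of the 10 mRNAs, beside 14.5% of all genes. In light this held for 7 of the 10, beside 11.2% of all genes. The exceptions were ND3 in heavy, and COX3, ND3 and ND4L in light. None of the 10 lay below every chow level in either pool, beside 13.4% of all genes in heavy and 14.6% in light. The mRNAs vary together, so these counts are not independent of one another.

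ND1, a complex I subunit at the ubiquinone site (MT, 2751 to 3707), had the largest value in heavy. It stood at 32.5, 68.0 and 13.8 CPM in chow 1, 2 and 3, and at 198 and 171 in keto 1 and 2. The groups did not overlap, at 38.1 ± 27.5 (SD, n = 3) against 185 ± 19.3 (SD, n = 2). The value was log2 2.28 ± 0.62 (edgeR adjusted p = 0.476). DESeq2 called it, with an adjusted p of 0.0273, and so did edgeR with no filter (adjusted p = 0.0154, beside 0.758% of all genes). Without the HISAT2 libraries it was 1.90 ± 0.53 (edgeR adjusted p = 0.0911). In light ND1 stood at 51.1, 110 and 16.5 CPM in chow and at 264 and 176 in keto, with log2 1.90 ± 0.71 (edgeR adjusted p = 0.796).

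COX1 stood at 313, 549 and 171 CPM in chow heavy and at 1061 and 1302 in keto heavy. Its value was 1.78 ± 0.67 (edgeR adjusted p = 0.527), and DESeq2 called it at the threshold (adjusted p = 0.0499). In light it stood at 580.1, 962 and 113 CPM in chow and at 1106 and 1286 in keto. The light groups did not overlap, but chow 2 came close, and the value was 1.11 ± 0.89 (edgeR adjusted p = 0.841).

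ND4, which forms part of the proton channels of complex I, had the largest value in light. It stood at 66.1, 140.1 and 15.5 CPM in chow light and at 324 and 276 in keto light. The value was 2.03 ± 0.77 (edgeR adjusted p = 0.796), and in heavy it was 1.83 ± 0.68 (edgeR adjusted p = 0.521). ND5 (1.53 and 1.48), CYTB (1.54 and 1.25), ND6 (1.18 and 1.72) and ND2 (1.03 and 1.18) followed in heavy and light. ND2 came closest to overlap in heavy, with chow 2 at 108 CPM and keto 1 at 112. Fitted values of COX3 (1.41 and 0.94), ND4L (1.90 and 0.70) and ND3 (1.13 and 0.09) include the low counts of chow 3. Without the HISAT2 libraries they were 0.85 and 0.37 for COX3, 1.32 and 0.11 for ND4L, and 0.58 and -0.47 for ND3.

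The values were smaller without chow 3. Without the HISAT2 libraries the median over the 10 was 1.20 in heavy and 0.73 in light, with 0.08 and -0.07 over all genes. ND3 then had a negative value in light (-0.47), and edgeR called 0 of the 10 in either pool. By library total the medians were 0.22 and 0.34, and the same scaling put the median of all genes at -1.60 and -1.82. Relative to all genes this was 1.82 and 2.16, against 1.58 and 1.35 after TMM scaling.

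Some summed cell markers did not overlap between keto and chow animals, where diet and processing cannot be told apart. The summed hepatocyte markers were at 8098 to 12907 CPM in chow heavy and at 4686 and 5441 in keto heavy, with no overlap. In light they were at 4070 to 8195 in chow and at 5398 and 5849 in keto. Erythroid markers, of which 6 of 8 were in the tables and all 6 had counts, were at 9.51 to 22.6 CPM in chow light and at 48.0 and 125 in keto light. In heavy they overlapped, at 3.57 to 27.3 in chow and 12.6 and 24.1 in keto. Stellate cell markers (7 of 7 with counts) were at 35.9 to 54.6 CPM in chow heavy and at 23.8 and 31.1 in keto heavy. Cholangiocyte markers (5 of 5 with counts) were at 4.08 to 13.4 and at 1.101 and 2.125. Neither list overlapped in heavy, and both overlapped in light. Of all single genes, 13.4% lay below every chow library in heavy and 11.2% above every chow library in light. How often summed lists separate was not computed. Kupffer cell and sinusoidal endothelial markers overlapped in heavy. The part of these markers in the diet values was not tested.

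Within the summed 10, keto and chow differed less. The share of ND1 was 8.06% and 5.74% in keto heavy against 3.89%, 4.83% and 3.79% in chow heavy, with no overlap. In light it overlapped, at 8.67% and 5.45% against 4.10%, 4.92% and 6.08%. ND4 was at 10.6% and 8.57% in keto light against 5.30%, 6.29% and 5.71% in chow light, also with no overlap. In heavy it overlapped, at 8.70% and 7.42% against 6.82%, 7.90% and 4.25%. ND6 in heavy was lower in keto with no overlap, at 5.13% and 5.82% against 6.38%, 8.23% and 7.91%. COX1 in light was also lower with no overlap, at 36.3% and 39.9% against 46.5%, 43.2% and 41.5%. How often all genes separate on this scale was not computed. ND2 overlapped, at 4.55% and 4.65% in keto heavy against 7.30%, 7.69% and 4.11% in chow heavy. edgeR with the summed 10 as library size called 0 of the 10 in heavy, beside 0.521% of all genes, and 0 in light, beside 0%. None reached an unadjusted p under 0.05, beside 26.8% of all genes in heavy and 11.3% in light. The library size was the sum of the 10 themselves, which holds their values near 0. These percentages are therefore no background for the 10. Their SEs were also large, from 0.98 (ND4) to 1.45 (ND3) in heavy and from 1.56 (ND4L) to 1.67 (CYTB) in light. The medians of all genes on this scale were -2.07 and -2.43. Share values of the 10 ran from -0.47 (ND2) to 0.73 (ND1) in heavy.

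The nuclear genes that serve these mRNAs did not pass the test in any comparison, in either direction, by edgeR. In keto against chow 0% of all genes passed in either pool, so the result there says nothing particular to these lists. The lists held 13 tested genes of mitochondrial transcription and DNA maintenance, 19 of RNA processing and decay, 15 translation factors, and 7, 4 and 9 nuclear partners in complexes I, III and IV. In keto against chow heavy, 0 of the 7 complex I partners had a positive value, with a median of -0.90. Of all genes 48.4% were positive there, with a median of -0.04. In light the 7 were also all negative, with a median of -0.31, beside 44.1% of all genes positive and a median of -0.13.

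Translation factors were at a median of -0.82 in heavy, with 3 positive and 12 negative, and -0.81 in light, with 4 and 11. Taco1, which activates the translation of COX1 mRNA, was at -2.33 ± 0.69 in heavy (edgeR adjusted p = 0.490). The genes of transcription and DNA maintenance were near 0, at -0.06 in heavy and -0.15 in light. RNA processing and decay genes were at 0.01 and -0.12. Cox6b1, a nuclear complex IV subunit, was at -2.12 ± 0.59 in heavy (edgeR adjusted p = 0.476). In heavy against light it was at 1.58 ± 0.51 in chow (edgeR adjusted p = 0.195) and at -0.82 ± 0.64 in keto (edgeR adjusted p = 1).

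The S209A animal was set beside chow 3, which shares its header wording, with 1 animal each and no test. The 7 mRNAs outside the gap had a median log2 value of S209A over chow 3 of 0.22 in heavy and 0.16 in light after TMM scaling. By library total the light median was -0.26, so no direction can be read in light. In heavy the values ran from -0.40 (ND2, 110 against 205 counts) to 0.40 (ND1, 177 against 189 counts). In light CYTB was at 1.06, with 591 against 466 counts, and ND4 at -0.73, with 73 against 199 counts. Exact 95% intervals, which cover counting error only, were 0.89 to 1.24 for CYTB and -1.13 to -0.33 for ND4. By library total CYTB was at 0.64 (0.47 to 0.82) and ND4 at -1.15 (-1.55 to -0.75), with the same signs. CYTB held 21.6% of the summed 10 in S209A light and 13.4% in chow 3 light, while ND1 held 3.03% and 6.08%. By heavy over light, the summed 10 were at 0.23 in S209A and 0.42 in chow 3.

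Among 2923 nuclear genes with a mean of at least 50 counts, the 5 whose log2 levels over the 12 libraries were most like the summed 10 were Gm20056 (r = 0.968), Rnu1a1 (0.951), Mpc1-ps (0.945), Anp32b-ps1 (0.942) and Nat8f2 (0.939). Pseudogenes make up 3 of the 5, and Rnu1a1 is a U1 snRNA gene. Pseudogene counts as a whole also split by header. They equalled 0.316% to 0.341% of the nuclear protein-coding counts in chow 3 and S209A, and 1.28% to 2.76% in the other animals. Gm20056 was at 0 CPM in both chow 3 libraries and at 20.5 to 25.3 in the keto libraries. Rnu1a1 was at 5.07 to 14.1 CPM in chow 3 and S209A and at 319 to 3382 in the other animals. The 12 points share the split by header, so these correlations describe the libraries and carry no test.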

How the data were processed

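Per the file headers and from the values, the authors deposited raw read counts for each Entrez ID, with a table for every library, and these were not altered. The submitters' processing notes name Trimmomatic, HISAT2, StringTie and build mm10, and the labels' protocols a stranded total RNA kit with 10 ng of input. Not given in the sources used here are versions, the counting tool, and how it treated strand and reads that map to several places. Symbols and positions came from the RefSeq table of GRCm38.p6, which matched 25275 of 27179 IDs. The mitochondrial tRNAs and spike-ins were not analysed here, and 0 columns were left unused.

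The 10 mRNAs and all gene lists were chosen with earlier results of these data known. All 10 were to be named in every comparison, with up to 4 genes per list by the smallest unadjusted p and the 5 nuclear genes most alike in level. Gm10925, Gm10222 and the split by header were singled out after their values were seen.

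Genes were kept by filterByExpr (minimum 10 counts) and scaled by TMM. edgeR 4.0.16 (R 4.3.3) gave two-sided quasi-likelihood tests with Benjamini-Hochberg adjustment over all genes. Heavy against light used all 12 libraries, with animals as blocks and, for each condition, an effect of the pool; keto against chow used the 6 libraries of a pool. An SE is the absolute log2 value over the square root of F. Shares were fitted with the summed 10 as library size. CPM was computed here from the deposited counts. Intervals are exact (Clopper-Pearson, 95%). DESeq2 1.42.0 and limma 3.58.1 (voom), other scalings and filters, and each animal left out were alternatives.

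Pools of an animal are paired by the titles. Deviations from the group mean in heavy and in light correlated at r = 0.382, 0.375 and 0.52 in chow 1, 2 and 3. Chow 3 differs from chow 1 and 2 by header in both pools, so these r values cannot tell pairing by animal from that split. With 2 keto animals the deviations mirror each other, so both give the same r, 0.0785. The values show little of the pairing there. The numbers in the titles did not pair chow with keto animals (r = -0.0312 in heavy and -0.0295 in light over 10555 genes). Nothing in the labels says more on how animals were housed or processed. The p-values measure the spread between these animals as processed. In chow that spread also holds the difference between the Bowtie2 and HISAT2 headers. On simulated counts for 10555 genes, edgeR recovered 48% of changes of 1.5 in log2 for chow heavy against light, 31% for keto, 13% for the difference, and 38% and 33% for keto against chow in heavy and light. It recovered 82% to 100% of changes of 3. The simulated counts had the same spread setting for every gene and no effect of animal or header. Only genes above the median level were changed. The percentages hold for that setting and do not give the power for the real spread between these animals.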

Additional observations from a re-analysis of the deposited data

How the results depend on the processing

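Of the 10 mRNAs, edgeR called 0 in each of the 5 comparisons, and the counts that differed were 1 for chow heavy against light (COX3: DESeq2, nuclear protein-coding total, without the HISAT2 libraries; 0 to 1 when each animal was left out) and, for keto against chow in heavy, 2 by DESeq2 (ND1, COX1) and 1 with no filter (ND1). Counts by share stayed at 0 under every alternative run. A library size made of the mRNAs themselves holds their values near 0, so this adds little. By library total, signs turned for chow heavy against light in ND2 (0.31), COX1 (0.047), ND3 (0.31), ND4 (0.24), ND5 (0.22) and CYTB (0.15), for keto heavy against light in ND1 (0.080), COX1 (0.29), ND4L (0.25), ND5 (0.0075), ND6 (0.073) and CYTB (0.031), and for keto against chow in ND2 (-0.28), ND3 (-0.071) and ND6 (-0.21) in heavy and ND3 (-0.44) in light. With the nuclear protein-coding total they turned in keto heavy against light for COX1 (0.13) and ND4L (0.094), and in the difference between diets for ND2 (0.22), ND4 (0.24), ND5 (0.41) and CYTB (0.51). Without the HISAT2 libraries, a setting chosen after seeing the data, the difference turned for ND5 (0.16) and CYTB (0.35), and keto against chow in light for ND3 (-0.47); CYTB also turned with a mean of at least 50 counts (0.090) and by limma-voom (0.020), and ND3 with the title wording as a term (-0.48). In these cases the cause was not tested.

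Without the animal as a replicate block, ND5 (0.041) and CYTB (0.28) turned in the difference between diets, and with the title number as a replicate block ND3 turned in keto against chow in light (-0.66). The block changed no call among the 10, and the title numbers did not pair the animals.

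Leaving out each animal in turn gave, for chow heavy against light, -0.62 to 0.28 (ND3) and -0.62 to 0.064 (CYTB). For keto heavy against light it gave -0.060 to 0.018 (COX1), -0.78 to 2.76 (ND3), -0.41 to 0.31 (ND4L) and -0.48 to 0.011 (ND6). For the difference it gave -0.63 to 0.047 (ND2), -0.52 to 3.01 (ND3), -0.21 to 0.17 (ND5) and -0.33 to 0.35 (CYTB). For keto against chow in light it gave -1.78 to 1.30 (ND3). The lone keto animal is then assumed to vary like the others. No sign turned in keto against chow in heavy when animals were left out. The S209A medians were 0.12 by library total and 0.13 by nuclear protein-coding total in heavy, and -0.26 and -0.21 in light.

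Counts were lowest for ND3 and ND4L, and 2 or 3 animals per group left SEs of 0.36 to 1.19 for the 10.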

Other observations

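The 3 mitochondrial mRNAs outside the 10 had these values. COX2, a core subunit of complex IV, had 62, 332, 254 and 224 counts in heavy for chow 1, chow 2, keto 1 and keto 2, and 182, 645, 338 and 155 in light. ATP6, a proton channel subunit of ATP synthase, had 163, 530, 1532 and 1237 counts in heavy, against 284, 479, 1392 and 575 in light. In keto against chow without the HISAT2 libraries, ATP6 was at log2 2.06 ± 0.53 in heavy (edgeR adjusted p = 0.0665) and 2.00 ± 0.55 in light (edgeR adjusted p = 0.288). COX2 was at 0.41 ± 0.54 and -0.05 ± 0.54 in the same fits. ATP8, which overlaps ATP6 by 43 bases, had 80 counts or fewer in every library, with 0 in chow 2 heavy and 80 in chow 2 light.

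The ratio of the mitochondrial rRNAs, mt-Rnr2 over mt-Rnr1, was 0.856 in chow 2 heavy and 1.03 to 1.42 in the other libraries.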
